A study of Mus musculus with 12 samples.

Results

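Interferon-stimulated genes were followed in the lacrimal gland of the mouse, the source of the aqueous layer of tears. The set holds 44 gene symbols. Members were the symbols found in the deposited gene table, which left 42 of its 11736 genes, while Herc6 and Siglec1 are not among them. Of the 42, 41 reached 1 FPKM in 3 or more of the 12 libraries and were tested among the 10325 genes that passed this filter, while Zbp1 reached 1 FPKM in 2 libraries and was not tested. The table lists only genes whose mean was 0.5 FPKM or more in some group, so an absent symbol may mean a low level. FPKM scales fragment numbers to transcript length and library size, which lets levels of different genes be set side by side.

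RNA was sequenced from control glands, from glands of mice labelled ESS, and from glands of NOD mice aged 8 weeks and 12 weeks, with 3 libraries in each of the 4 groups. NOD (non-obese diabetic) is an inbred strain that develops autoimmune inflammation of the pancreas and of the tear and salivary glands. The design text names LGSS mice where the labels have ESS, and both names were read as the same group. The sources used here do not give how the ESS mice were made, the strain and age of control and ESS mice, the sex of any mouse, or whether the libraries of a group came from different animals. Strain, age and sex therefore cannot be told apart from group, and the p-values reflect the spread between samples alone, which may be technical. Each library is bulk gland RNA, in which fewer cells of a type and less RNA per cell cannot be told apart. Defining genes of lacrimal secretion were present in every library. Ltf, which encodes lactoferrin, ranged from 418 to 586 FPKM, and Lpo, which encodes lactoperoxidase, from 1088 to 2227 FPKM. The summed level of the 9 listed genes of lacrimal secretion was 4630 to 6568 FPKM in control, 7465 to 9345 in ESS, 8919 to 10230 in NOD at 8 weeks and 9254 to 9424 at 12 weeks. Of these 9 genes 3 rose and 3 fell at 8 weeks, and 2 rose and 1 fell at 12 weeks against control. Of all 10325 tested genes 547 rose and 2278 fell at 8 weeks, and 570 rose and 2874 fell at 12 weeks. The part of the lacrimal secretion genes in the results on the members was not tested.

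Interferons are secreted proteins that signal through cell surface receptors and JAK kinases. Type I and type III interferons activate a complex that contains STAT2 and IRF9 and binds the interferon-stimulated response element (ISRE) in promoters, while interferon gamma acts through the GAS element. The induced genes encode sensors of foreign RNA, enzymes and GTPases that restrict viruses and intracellular microbes, and regulators that amplify or end the response. A raised expression of these genes is a known feature of Sjögren's syndrome in patients, an autoimmune disease of the tear and salivary glands.

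The ISRE is the sequence feature that links many of these genes, so stretches of 8 promoters that hold it are shown before the values. RefSeq promoters (GRCm38.p6, 250 bases before to 50 bases after each start site) were matched to 33 of the 42 members by symbol. The letters GAAANNGAAA, on either strand and counting overlapping matches, were present in 18 of these 33 (54.5%), against 3.83% of the 8072 tested genes with a promoter. The shorter GAS letters TTCNNNGAA were present in 12 of the 33 (36.4%), against 8.24% of the tested genes. Each stretch of 50 bases below lies upstream of the start site on the strand of its gene, and capitals mark every match to the ISRE letters, which read TTTCNNTTTC where the match is on the other strand.
Isg15, chr4:156200867-156200916, minus strand: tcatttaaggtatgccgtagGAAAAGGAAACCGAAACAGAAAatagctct
Ifit1, chr19:34640765-34640814, plus strand: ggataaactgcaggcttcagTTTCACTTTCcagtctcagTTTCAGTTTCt
Ifit3, chr19:34583353-34583402, plus strand: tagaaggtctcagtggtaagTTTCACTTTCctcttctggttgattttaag
Rsad2, chr12:26456543-26456592, minus strand: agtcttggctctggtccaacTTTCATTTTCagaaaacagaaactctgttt
Bst2, chr8:71537573-71537622, minus strand: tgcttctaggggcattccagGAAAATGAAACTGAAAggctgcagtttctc
Stat2, chr10:128270256-128270305, plus strand: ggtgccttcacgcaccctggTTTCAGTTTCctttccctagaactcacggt
Igtp, chr11:58199502-58199551, plus strand: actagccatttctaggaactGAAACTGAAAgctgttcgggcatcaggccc
Irgm2, chr11:58214893-58214942, plus strand: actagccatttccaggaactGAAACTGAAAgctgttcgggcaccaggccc
The first match began 78 bases before the start site in Isg15, 104 in Ifit1, 156 in Ifit3, 120 in Rsad2, 130 in Bst2, 222 in Stat2, 34 in Igtp and 64 in Irgm2. Isg15 holds 3 overlapping matches. The stretches of Igtp and Irgm2, neighbouring GTPase genes on chromosome 11, carry the same capitals. A match is a description of the letters and not of a working site.

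The members were highest in control glands and lowest in NOD glands at 8 weeks. The mean was highest in control for 37 of the 42 members, in ESS for Oas1a, Ifi27l2a, Lgals3bp and Trim30a, and in NOD at 12 weeks for Eif2ak2. It was lowest in NOD at 8 weeks for 36 members, at 12 weeks for Ifit2, Gbp2, Irf1 and Isg15, and in ESS for Eif2ak2 and Stat2. By mean log2(FPKM + 1), 64.2% of all tested genes were below control in ESS, 70.6% at 8 weeks and 73.7% at 12 weeks. How many of all genes share the order of the members was not counted. Levels in control spanned 1.10 FPKM for Zbp1 to 166 FPKM for Ifi27, with 4 members above 25 FPKM (Ifi27, Ifitm3, Ifi27l2a and Bst2).

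**Figure D1:**
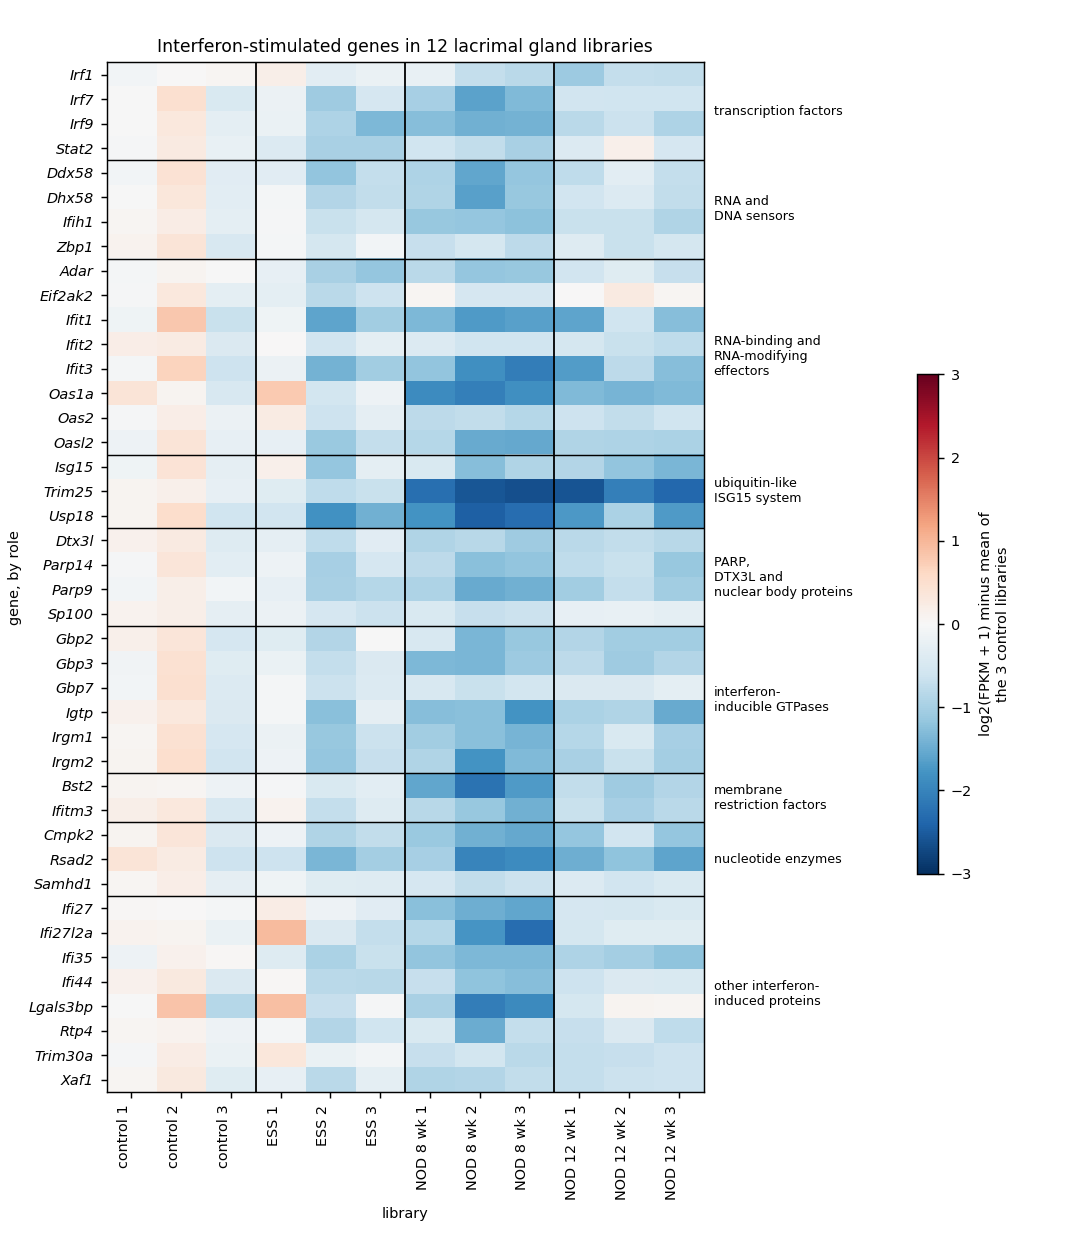
Each cell of the heat map is the log2(FPKM + 1) of 1 of the 42 members (rows, grouped by role) in 1 of the 12 libraries (columns), minus the mean of the 3 control libraries. Blue, lower than control, fills most of the NOD columns, deepest for Trim25 and Usp18 at 8 weeks, while Eif2ak2 stays pale and ESS library 1 is close to control.

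In NOD glands at 8 weeks 37 of the 41 tested members fell and 0 rose against control, where 22.1% of all tested genes fell. At 12 weeks 29 fell and 0 rose, where 27.8% of all tested genes fell. The test was limma on log2(FPKM + 1), with a Benjamini-Hochberg adjusted p under 0.05 over all 10325 genes. The 3 NOD libraries lay below all 3 control libraries in 38 members at 8 weeks, against 33.2% of all genes, and in 32 members at 12 weeks, against 40.4%. The 29 at 12 weeks became 15 without control library 2 and 19 without NOD library 3. The 4 members that did not pass at 8 weeks were Eif2ak2, Gbp7, Ifit2 and Isg15.

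All genes together were lower in NOD than in control glands, by a median log2 fold change of -0.15 at 8 weeks and -0.18 at 12 weeks, and quantile normalization, centring of library medians and rescaling moved that median up by 0.11 to 0.17 and by 0.17 to 0.19. Log2 fold changes are therefore given below relative to the median of all genes tested in the same comparison, and calls and adjusted p-values refer to the values before this median is taken off. On this scale the median of the members was -1.08 at 8 weeks (range -2.35 to -0.17) and -0.61 at 12 weeks (range -2.15 to 0.31), where the median of all genes is 0 by construction. Of the genes called among all those tested 19.4% rose at 8 weeks and 16.6% at 12 weeks, but 52.4% and 51.3% with centred library medians. With that centring 35 members fell at 8 weeks, where 1150 of all 10325 tested genes fell, and 18 members fell at 12 weeks. The fold change on the log2(FPKM + 1) scale understates the change of genes with low values.

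**Figure D2:**
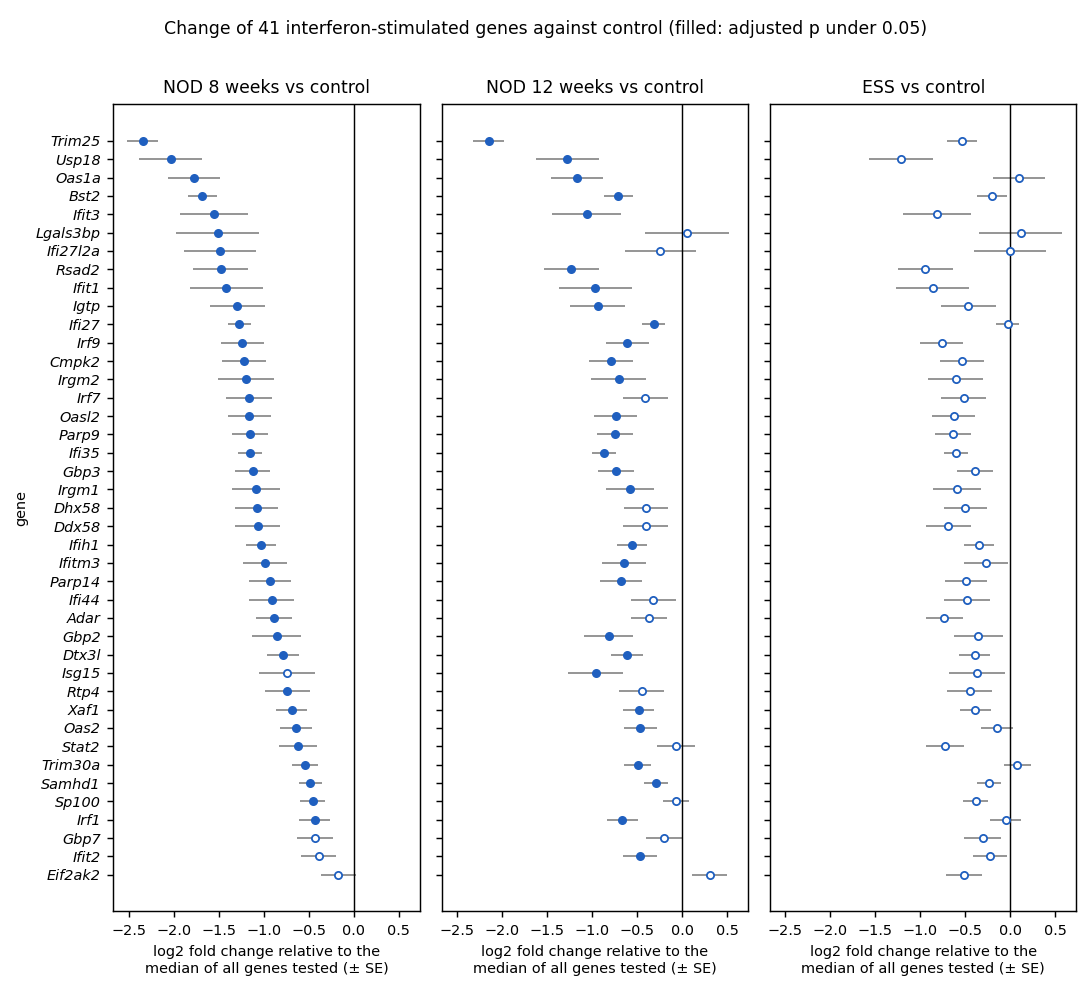
Log2 fold change of the 41 tested members (rows) relative to the median of all genes tested, with its SE, for NOD at 8 weeks, NOD at 12 weeks and ESS against control (3 libraries a group). Filled points passed an adjusted p of 0.05. All 41 points lie left of 0 at 8 weeks, 39 at 12 weeks and 38 in ESS, where none is filled.

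The filter let through 9 members that reached 1 FPKM in only 3 or 2 of the groups, with control and ESS among them. Part of their difference between NOD and control, or NOD and ESS, is therefore set by the filter, also in the results below. The 9 members are Oas1a, Cmpk2 and Rsad2, and Ifit2, Oas2, Gbp3, Gbp7, Trim30a and Xaf1, the last 6 reaching it in control and ESS alone. Of the 32 members that reached 1 FPKM in every group, 30 fell at 8 weeks and 21 at 12 weeks. The share fallen among all genes that reached it in every group was not counted.

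Single libraries stood apart within the groups. Control library 2 was the highest of its group in 36 of the 42 members, and control library 3 the lowest in 39. ESS library 1 was the highest of its group in 41 members and ESS library 2 the lowest in 34. Among all genes control library 2 was highest in 40.6% and ESS library 1 in 50.9%. ESS libraries 1 and 2 also hold abundant salivary transcripts, such as Bpifa2 at 6915 and 4790 FPKM against 12.2 FPKM in ESS library 3. Sequencing depth is unknown, since the files hold no counts. It could not be read from the low values either, of which 27.0% to 64.8% lay within 0.1 of a whole multiple of the best step, where that tolerance alone gives 20%.

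Macrophage and general leukocyte markers were lower in NOD glands, as the members were. The summed level of 14 macrophage markers was 172 to 286 FPKM in control, 216 to 360 in ESS, 104 to 112 in NOD at 8 weeks and 107 to 162 at 12 weeks. Of 13 tested markers 8 and 7 fell at the 2 NOD ages, where 22.1% and 27.8% of all tested genes fell. Lyz2, C1qa, C1qb and C1qc were the most abundant of the macrophage markers and all 4 fell at both ages. The summed level of 5 markers shared by all leukocytes was 25.9 to 33.9 FPKM in control, 17.8 to 32.8 in ESS, 9.03 to 12.2 at 8 weeks and 9.35 to 16.2 at 12 weeks, and all 4 tested markers fell at both ages. No marker of these lists was at 0 in all libraries of a group. In ESS none of these markers was called, and relative to all genes their medians were 0.17 for macrophages and -0.18 for leukocytes, beside -0.47 for the members. Their part in the lower levels of the members was not tested.

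**Figure D3:**
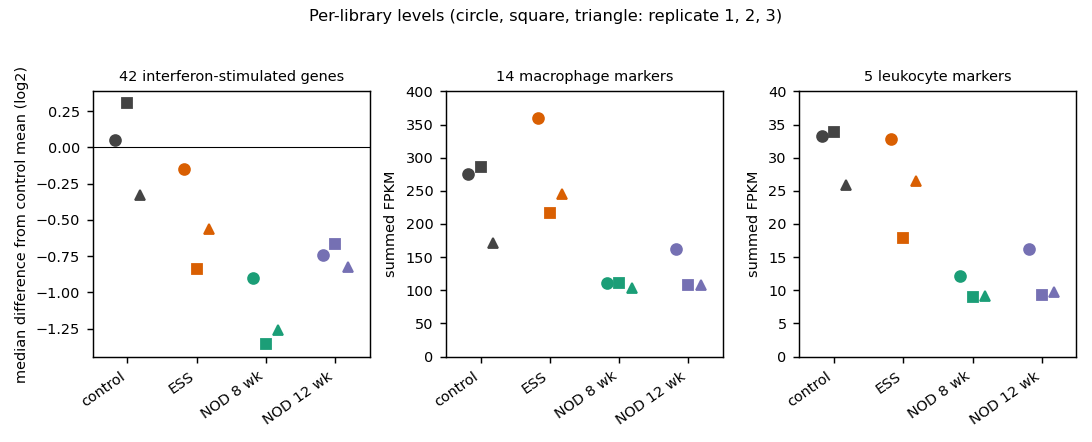
For each library (points, with shape giving the replicate number) the panels show the median log2 difference of the 42 members from the control mean, the summed FPKM of 14 macrophage markers and the summed FPKM of 5 leukocyte markers. The 6 NOD libraries lie between -1.36 and -0.67 in the members' panel and below all control libraries in both marker panels, while the ESS libraries overlap control in both marker panels.

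Markers of the other cell types moved in different directions. Plasma cell markers were higher in NOD, with 3 of 4 tested markers risen at 8 weeks and 2 at 12 weeks. Of all 10325 tested genes 547 and 570 rose at these ages. The summed level of the plasma cell markers was 54.3 to 58.2 FPKM in control, 58.8 to 72.1 in ESS, 90.5 to 110.1 at 8 weeks and 118 to 145 at 12 weeks. Of 10 T cell markers 4 were listed and only Thy1 was tested, and it fell at both NOD ages. Its values were 5.65, 6.76 and 4.30 FPKM in control and 3.49, 2.82 and 1.82 FPKM at 8 weeks. Of 6 B cell markers only Cd79a was listed, and their summed level was at most 1.10 FPKM in any library. Fibroblast markers had 0 of 5 called at either age. Endothelial markers had 0 of 5 called at 8 weeks and 1 fallen, Emcn, at 12 weeks. Dendritic cell markers had only Itgax tested, which fell at both ages, and natural killer cell markers had only Gzma tested, which was called at neither. The summed T cell markers were 6.24 to 8.28 FPKM in control, 2.14 to 3.84 at 8 weeks and 2.44 to 4.82 at 12 weeks, and the summed dendritic cell markers 2.09 to 3.74, 0.714 to 1.19 and 0.829 to 1.28 FPKM.

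Upstream of the members, no interferon was listed, with 0 of 15 ligand genes in the table. Of 9 receptor and receptor kinase genes 0 rose and 4 fell at each NOD age, where 22.1% and 27.8% of all tested genes fell. The same 4 genes were called, Ifnlr1, Jak2, Ifngr2 and Ifngr1. The median of the list relative to all genes was 0.04 at 8 weeks and -0.08 at 12 weeks. Ifnlr1, the specific chain of the type III interferon receptor, fell from 5.23, 5.40 and 6.18 FPKM in control to 3.10, 2.73 and 2.55 at 8 weeks and 2.63, 3.27 and 2.50 at 12 weeks (log2 fold change -0.65, adjusted p = 0.000558, and -0.62, adjusted p = 0.0005). Jak2, a kinase of the interferon gamma receptor, also fell (log2 fold change -0.38, adjusted p = 0.00462, and -0.44, adjusted p = 0.00161). Ifnar1 and Ifnar2, the chains of the type I receptor, did not pass at either age. Ifnar2, with the lower adjusted p at 12 weeks (0.0769), had 6.38, 6.70 and 7.63 FPKM in control and 5.55, 5.19 and 5.97 FPKM at 12 weeks.

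On a list for nucleic acid sensing upstream of interferon, 8 of 12 tested genes fell at 8 weeks and 5 at 12 weeks, with 0 risen. The list also holds adaptors, nucleases and escort proteins. The 5 genes fallen at 12 weeks, named below, are of these kinds and are not sensors themselves. Of all tested genes 22.1% fell at 8 weeks and 27.8% at 12 weeks. Rnaseh2c, a subunit of the enzyme that removes RNA from DNA, was 12.2, 12.0 and 14.1 FPKM in control, 5.48, 5.51 and 6.74 at 8 weeks and 5.28, 4.27 and 4.64 at 12 weeks (log2 fold change -0.85, adjusted p = 3.67e-05, and -1.08, adjusted p = 5.2e-06). Its partners Rnaseh2a and Rnaseh2b also fell at both ages, as did the adaptor gene Myd88 and Unc93b1, which escorts Toll-like receptors. Among 6 further transcription factor genes of the response 5 fell at 8 weeks and 3 at 12 weeks, namely Irf5, Irf3 and Irf8. Irf5, which acts downstream of Toll-like receptors, had 2.21, 2.92 and 1.96 FPKM in control against 1.12, 0.441 and 0.660 at 8 weeks and 1.10, 0.787 and 0.861 at 12 weeks.

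Of 6 tested negative regulators 1 rose and 2 fell at 8 weeks, and 0 rose and 1 fell at 12 weeks. Of all 10325 tested genes 547 rose and 22.1% fell at 8 weeks, and 570 rose and 27.8% fell at 12 weeks. Socs3, an inhibitor of JAK kinases, rose at 8 weeks from 1.44, 2.35 and 2.94 FPKM in control to 4.88, 3.76 and 4.69 FPKM (log2 fold change 0.91, adjusted p = 0.0209). Ptpn1, a phosphatase that acts on JAK2 and TYK2, fell at both ages (adjusted p = 0.0199 and 0.0107).

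Of the members that are transcription factors, all 4 fell at 8 weeks and Irf1 and Irf9 fell at 12 weeks. Irf9, the DNA-binding subunit of the complex with STAT2, had 11.1, 14.3 and 9.01 FPKM in control, 9.69, 5.50 and 3.83 in ESS, 4.06, 3.51 and 3.56 in NOD at 8 weeks and 6.03, 6.84 and 5.42 at 12 weeks. Every NOD library lay below every control library, and the log2 fold change was -1.24 (SE 0.24, adjusted p = 0.00148) at 8 weeks and -0.61 (adjusted p = 0.0243) at 12 weeks. The call at 12 weeks ended under 8 alternatives, among them all 3 scalings and the fits without control library 1 or 2 or NOD library 1 or 3. Irf9 shares 123 bases on the same strand with Rnf31.

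Stat2, its partner in the complex, had 6.06, 7.80 and 5.23 FPKM in control, 4.50, 2.70 and 2.69 in ESS, 3.84, 3.37 and 2.72 in NOD at 8 weeks and 4.50, 7.14 and 4.15 at 12 weeks. It fell at 8 weeks (log2 fold change -0.62, adjusted p = 0.0184), a call lost without control library 2 or NOD library 3, and at 12 weeks the groups overlapped (adjusted p = 0.385). Irf7, which amplifies type I interferon production, had 5.04, 7.54 and 3.47 FPKM in control, 4.47, 1.95 and 3.30 in ESS, 2.06, 1.03 and 1.44 in NOD at 8 weeks and 3.10, 3.06 and 3.04 at 12 weeks. The NOD libraries were below control at both ages, and the fall passed at 8 weeks (log2 fold change -1.16, adjusted p = 0.00292) but not at 12 weeks (adjusted p = 0.0898). Irf1, induced mainly by interferon gamma, had 4.68, 5.10 and 5.30 FPKM in control, 5.81, 3.84 and 4.25 in ESS, 4.18, 2.68 and 2.44 in NOD at 8 weeks and 1.81, 2.69 and 2.63 at 12 weeks. Irf1 was among the few members lower at 12 than at 8 weeks, with log2 fold changes of -0.43 (adjusted p = 0.0287, lost under 8 alternatives including all 3 scalings and the fits without control library 2 or 3 or NOD library 2 or 3) and -0.66 (adjusted p = 0.00377) against control.

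The cytoplasmic RNA sensors Ddx58 (RIG-I), Ifih1 (MDA5) and Dhx58 (LGP2) all fell at 8 weeks, and only Ifih1 fell at 12 weeks. Ddx58 had 5.61, 8.50 and 4.55 FPKM in control, 4.59, 2.08 and 3.26 in ESS, 2.73, 1.39 and 2.14 in NOD at 8 weeks and 3.18, 4.70 and 3.32 at 12 weeks. The groups were separate at 8 weeks (log2 fold change -1.07, adjusted p = 0.00431, lost when transcript values were summed) and overlapped at 12 weeks (adjusted p = 0.0911). Ifih1 fell from 3.75 ± 0.806 FPKM (mean ± SD, n = 3) to 1.08 ± 0.0843 and 1.81 ± 0.240 FPKM at the NOD ages (adjusted p = 0.000391 and 0.00589). Both Ifih1 calls held under every alternative that tested the gene. Dhx58 went from 3.74 ± 1.06 to 1.03 ± 0.492 FPKM at 8 weeks (adjusted p = 0.0034). The DNA and RNA sensor Zbp1, untested, ranged from 0.181 FPKM in NOD at 8 weeks to 1.65 FPKM in control.

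Of 8 effectors that bind or modify RNA 6 fell at each NOD age. The oligoadenylate synthetase Oas1a, which activates RNase L when it meets double-stranded RNA, had 7.51, 5.93 and 3.71 FPKM in control, 10.3, 3.49 and 4.87 in ESS, 0.776, 0.583 and 0.811 in NOD at 8 weeks and 1.59, 1.48 and 1.59 at 12 weeks. Both NOD groups lay below all control and all ESS libraries, and the log2 fold change at 12 weeks was -1.17 (SE 0.29, adjusted p = 0.00434). The mean of Oas1a in control was 7.91 times that at 8 weeks and 3.68 times that at 12 weeks. Its transcript is 97.6% identical to Oas1g over 98.7% of its length, so reads may have been split between the copies. Its neighbour on chromosome 5, Oas2, fell at both ages from 1.24 ± 0.304 FPKM to 0.288 ± 0.0470 and 0.422 ± 0.0695 FPKM (adjusted p = 0.00772 and 0.0178, the latter lost with quantile normalization, with centring and without control library 2 or NOD library 2). Oas2 reached 1 FPKM in control and ESS alone, and Oas1a stayed under it in every NOD library at 8 weeks.

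Oasl2, a relative of the synthetases that enhances RNA sensing, had 4.60, 7.09 and 4.24 FPKM in control, 4.22, 1.86 and 2.78 in ESS, 2.39, 1.15 and 1.14 in NOD at 8 weeks and 2.33, 2.26 and 2.20 at 12 weeks. No NOD value reached the lowest control value (log2 fold change -1.16, adjusted p = 0.00208, and -0.74, adjusted p = 0.012), and both calls held under every alternative that tested Oasl2. Ifit1, which binds viral RNA lacking a host cap, had 4.72, 10.0 and 2.93 FPKM in control, 4.71, 1.10 and 2.03 in ESS, 1.45, 0.932 and 1.04 in NOD at 8 weeks and 1.10, 3.18 and 1.61 at 12 weeks. The spread was wide in control, where library 2 was highest, and the fall was called at 8 weeks (log2 fold change -1.42, adjusted p = 0.0144, lost without control library 2) and narrowly at 12 weeks (adjusted p = 0.0474, lost under 15 alternatives).

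Ifit3, which stabilises the IFIT1 complex in human cells, had 9.16, 15.8 and 5.92 FPKM in control, 8.42, 2.95 and 4.14 in ESS, 3.67, 1.97 and 1.50 in NOD at 8 weeks and 2.33, 5.12 and 3.38 at 12 weeks. NOD libraries were below control at both ages (log2 fold change -1.55, adjusted p = 0.00692, and -1.06, adjusted p = 0.027), and the call at 12 weeks was lost under all 3 scalings and without control library 1 or 2 or NOD library 1 or 3. Its copy Ifit3b is 97.8% identical over 97.4% of the transcript. Ifit2, of the same cluster on chromosome 19, had 1.20 ± 0.536 FPKM in control, 0.483 ± 0.106 at 8 weeks (adjusted p = 0.0542) and 0.369 ± 0.103 at 12 weeks (adjusted p = 0.0207, lost with centring and without control library 1 or 2 or NOD library 2 or 3).

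Adar, which edits adenosine in double-stranded RNA, fell at 8 weeks from 4.73 ± 0.309 to 1.82 ± 0.402 FPKM (adjusted p = 0.00314) and had 2.93 ± 0.467 FPKM at 12 weeks (adjusted p = 0.0538). It overlaps Chrnb2 on the other strand over 7252 bases, and the counting is not stated to use strand. Eif2ak2 (PKR), the kinase that halts translation on double-stranded RNA, was the exception. Eif2ak2 had 4.61, 6.13 and 3.63 FPKM in control, 3.64, 2.25 and 2.73 in ESS, 4.95, 3.01 and 3.02 in NOD at 8 weeks and 4.77, 5.91 and 4.99 at 12 weeks. Control and NOD libraries overlapped at both ages, with log2 fold changes of -0.17 (SE 0.20, adjusted p = 0.258) and 0.31 (SE 0.20, adjusted p = 0.663).

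ISG15 is a small ubiquitin-like protein that is attached to other proteins. Isg15 itself had 6.00, 9.15 and 5.36 FPKM in control, 7.55, 2.44 and 5.24 in ESS, 4.55, 2.17 and 3.09 in NOD at 8 weeks and 3.17, 2.40 and 1.94 at 12 weeks. At 8 weeks the groups did not overlap but the difference missed the threshold (log2 fold change -0.74, SE 0.31, adjusted p = 0.0541), and at 12 weeks it fell (-0.96, adjusted p = 0.0153, lost without control library 2 or NOD library 3). A sequence 95.2% identical to 63.8% of its transcript, AC151275.1, may share its reads.

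Trim25, a ubiquitin ligase that acts on RIG-I and on ISG15 targets, had the lowest log2 fold changes of the tested members at both NOD ages. Trim25 had 9.15, 9.77 and 7.17 FPKM in control, 6.50, 4.64 and 5.11 in ESS, 1.00, 0.618 and 0.548 in NOD at 8 weeks and 0.602, 1.33 and 0.875 at 12 weeks. The NOD values were far below those of control and ESS, whose libraries did not overlap each other either. The mean in control was 12.0 times that at 8 weeks and 9.28 times that at 12 weeks (log2 fold change -2.35, SE 0.17, adjusted p = 1.35e-06, and -2.15, SE 0.17, adjusted p = 2.2e-06), and both calls held under every alternative tried.

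Usp18, the protease that removes ISG15 and blocks the type I receptor, had 7.01, 9.97 and 4.01 FPKM in control, 4.12, 1.17 and 1.80 in ESS, 1.20, 0.394 and 0.553 in NOD at 8 weeks and 1.30, 2.92 and 1.35 at 12 weeks. All NOD libraries lay below control (log2 fold change -2.03, SE 0.35, adjusted p = 0.00096, and -1.28, adjusted p = 0.00863), and both calls held under every alternative that tested Usp18. Outside the members, Uba7, which activates ISG15, fell at both ages (adjusted p = 0.00145 and 0.00731). Ube2l6, which carries it, had 3.11, 3.88 and 1.32 FPKM in control and 1.42, 0.616 and 0.560 at 8 weeks and did not pass (adjusted p = 0.0562).

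**Figure D4:**
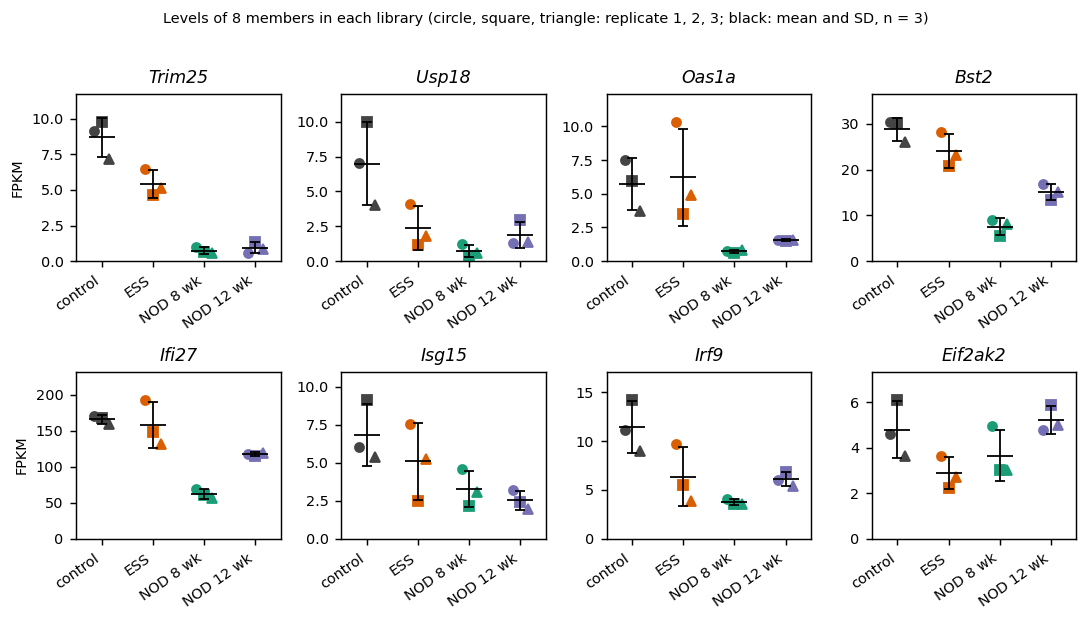
FPKM of 8 members in every library, with the mean and SD of each group in black (n = 3). Trim25, Usp18, Oas1a and Bst2 are low in both NOD groups, Ifi27 and Bst2 are higher at 12 than at 8 weeks, and Eif2ak2 overlaps between control and NOD.

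The PARP9 and DTX3L proteins form a complex that modifies histones and viral proteins, and PARP14 is a related enzyme. Their 3 genes, neighbours on chromosome 16, fell at both ages. Parp9 had 4.77, 5.87 and 4.73 FPKM in control, 4.12, 2.09 and 2.37 in ESS, 2.20, 1.14 and 1.24 in NOD at 8 weeks and 1.98, 2.71 and 1.97 at 12 weeks. Control and NOD did not overlap (log2 fold change -1.15, adjusted p = 0.000759, and -0.75, adjusted p = 0.00498). Parp9 and Dtx3l overlap by 682 bases on opposite strands, so their reads may be mixed where strand was not used. Dtx3l fell from 2.89 ± 0.879 to 1.01 ± 0.170 and 1.20 ± 0.0720 FPKM, and Parp14 from 2.62 ± 0.857 to 0.702 ± 0.314 and 0.975 ± 0.325 FPKM, the Parp14 call at 12 weeks being lost without control library 2 or NOD library 3. Sp100, a component of nuclear bodies, had 17.2, 18.2 and 13.1 FPKM in control, 14.1, 10.9 and 9.86 in ESS, 11.4, 9.56 and 9.80 in NOD at 8 weeks and 13.3, 13.7 and 12.9 at 12 weeks. It fell at 8 weeks (log2 fold change -0.45, adjusted p = 0.00842), while at 12 weeks 2 of the 3 libraries exceeded the lowest control value (adjusted p = 0.189).

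Interferon-inducible GTPases attack the vacuoles of intracellular microbes, and 5 of their 6 genes fell at each NOD age. Igtp (Irgm3) had 6.45, 7.50 and 4.05 FPKM in control, 5.61, 1.85 and 4.67 in ESS, 1.82, 1.89 and 0.967 in NOD at 8 weeks and 2.52, 2.68 and 1.40 at 12 weeks. NOD libraries were below control at both ages (log2 fold change -1.29, adjusted p = 0.00524, and -0.94, adjusted p = 0.0161, lost at 12 weeks without control library 2 or NOD library 3). Irgm1, a regulator of these GTPases, had 5.68, 7.78 and 3.49 FPKM in control, 4.65, 1.91 and 3.08 in ESS, 2.11, 1.68 and 1.45 in NOD at 8 weeks and 2.56, 3.70 and 2.22 at 12 weeks. NOD library 2 at 12 weeks exceeded control library 3, and the call was firm at 8 weeks (adjusted p = 0.00572) but lost under 14 alternatives at 12 weeks (adjusted p = 0.0456). Irgm2, with 4.06 ± 1.79 FPKM in control, fell to 0.964 ± 0.595 and 1.63 ± 0.360 FPKM, the latter call lost under 12 alternatives. It lies over Igtp on the same strand for 7974 bases, so their reads may be mixed.

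The guanylate-binding proteins Gbp2, Gbp3 and Gbp7 lie together on chromosome 3. Gbp3 went from 2.54 ± 1.08 FPKM in control to 0.431 ± 0.153 and 0.826 ± 0.176 FPKM (adjusted p = 0.000723 and 0.00466), with both calls held under every alternative that tested it. Gbp3 and Gbp7 reached 1 FPKM in control and ESS alone, so the filter sets part of their differences. Gbp2 went from 4.86 ± 1.66 to 1.94 ± 0.981 and 1.85 ± 0.186 FPKM (adjusted p = 0.0183 and 0.016). The Gbp2 call was lost without control library 2 at both ages, and at 8 weeks also without control library 1 or NOD library 2 or 3. Gbp7 had 1.30 ± 0.728 FPKM in control against 0.499 ± 0.0925 at 8 weeks (adjusted p = 0.0537) and 0.706 ± 0.0979 at 12 weeks (adjusted p = 0.161).

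Both membrane restriction factors fell at each age. Bst2 (tetherin), which holds budding viruses at the cell surface, had 30.4, 30.1 and 25.9 FPKM in control, 28.1, 20.8 and 23.1 in ESS, 9.02, 5.40 and 8.21 in NOD at 8 weeks and 16.9, 13.3 and 15.2 at 12 weeks. The 4 groups kept the order control, ESS, 12 weeks and 8 weeks, and only control and ESS overlapped. The log2 fold change at 12 weeks was -0.71 (SE 0.17, adjusted p = 0.00203). Ifitm3, which blocks the fusion of viruses with endosomes, had 88.8, 98.5 and 56.4 FPKM in control, 85.7, 47.6 and 60.0 in ESS, 44.3, 35.4 and 28.6 in NOD at 8 weeks and 49.2, 39.0 and 44.5 at 12 weeks. NOD libraries lay below control at both ages (log2 fold change -0.99, adjusted p = 0.00511, and -0.65, adjusted p = 0.0209), and the call at 12 weeks was lost under all 3 scalings and without control library 1 or 2 or NOD library 2 or 3.

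The 3 nucleotide enzymes fell at both ages. Rsad2 (viperin), which makes a chain-terminating nucleotide, went from 3.48 ± 1.50 FPKM to 0.462 ± 0.589 and 0.615 ± 0.213 FPKM (adjusted p = 0.00259 and 0.00492), held under every alternative that tested it. Cmpk2, a mitochondrial nucleotide kinase that lies beside Rsad2 on chromosome 12, went from 3.16 ± 1.09 to 0.593 ± 0.256 and 1.11 ± 0.514 FPKM, calls lost at both ages when transcript values were summed. Samhd1, which depletes nucleotides needed for reverse transcription, changed least of the 3, from 4.13 ± 0.830 to 2.30 ± 0.271 and 2.67 ± 0.206 FPKM (adjusted p = 0.00428 and 0.016, the latter lost under all 3 scalings and without control library 2 or NOD library 2).

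All 8 of the other interferon-induced proteins fell at 8 weeks and 4 of them fell at 12 weeks. Ifi27, a small mitochondrial protein and the most abundant member, had 171, 168 and 160 FPKM in control, 194, 148 and 132 in ESS, 69.3, 60.0 and 56.1 in NOD at 8 weeks and 117, 115 and 120 at 12 weeks. The NOD libraries fell into separate ranges by age, both below control (log2 fold change -1.27, adjusted p = 1.08e-05, and -0.32, adjusted p = 0.0105, the latter lost under all 3 scalings and with summed transcripts). Its neighbour Ifi27l2a, of the same family, had 60.4, 59.4 and 48.6 FPKM in control, 109, 41.0 and 33.7 in ESS, 30.5, 15.8 and 10.6 in NOD at 8 weeks and 38.3, 42.9 and 43.2 at 12 weeks. It fell at 8 weeks (log2 fold change -1.49, adjusted p = 0.0107), and ESS library 1 was far above the other 11 libraries.

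Ifi35, an interferon-induced leucine zipper protein, had 20.2, 24.7 and 23.2 FPKM in control, 16.9, 11.3 and 13.9 in ESS, 9.30, 8.28 and 8.28 in NOD at 8 weeks and 11.4, 10.6 and 9.26 at 12 weeks. The spread within groups was small and no NOD library reached control (log2 fold change -1.15, adjusted p = 3.73e-05, and -0.87, adjusted p = 0.00017), with both calls held under every alternative tried. Lgals3bp, a secreted galectin ligand, had 16.3, 30.4 and 8.60 FPKM in control, 31.2, 9.72 and 16.1 in ESS, 7.78, 3.14 and 3.61 in NOD at 8 weeks and 11.0, 17.3 and 17.1 at 12 weeks. It fell at 8 weeks (adjusted p = 0.0203, lost without control library 2 or NOD library 2 or 3), and at 12 weeks all 3 values lay within the control range (adjusted p = 0.853).

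Trim30a, a mouse TRIM protein that dampens Toll-like receptor signalling, fell from 1.67 ± 0.394 FPKM to 0.647 ± 0.138 and 0.657 ± 0.0556 FPKM (adjusted p = 0.00565 and 0.0054) under every alternative that tested it. Xaf1, a pro-apoptotic factor, fell from 1.68 ± 0.588 to 0.480 ± 0.0844 and 0.664 ± 0.0557 FPKM, the latter lost with quantile normalization, centring, summed transcripts and without control library 2, and the former with summed transcripts. Trim30a and Xaf1 reached 1 FPKM in control and ESS alone, so the filter sets part of their differences. Ifi44 fell at 8 weeks from 2.35 ± 0.820 to 0.600 ± 0.379 FPKM (adjusted p = 0.00938), as did Rtp4, a chaperone of membrane receptors, from 4.29 ± 0.509 to 1.98 ± 0.999 FPKM (adjusted p = 0.0226, lost with quantile normalization, with centring and without control library 1 or 2 or NOD library 2). Neither passed at 12 weeks. Rtp4 shares 39791 bases on the same strand with Gm45338.

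In ESS glands 0 members rose and 0 fell against control with limma over all genes, where 0.0969% of all tested genes fell. At an unadjusted p under 0.05 there were 24 members, all lower in ESS, against 1245 of 10325 genes in either direction. The log2 fold change before the median was taken off was below 0 in 38 of 41 members, against 64.2% of all genes. The median of the members relative to all genes was -0.47 (range -1.22 to 0.12), and the median of all genes taken off was -0.06. All 3 ESS libraries lay below all 3 control libraries in 6 of 41 members, a share close to the 13.9% of all genes. These were Adar, Ifi35, Oasl2, Parp9, Stat2 and Trim25. Ifi35 had the lowest adjusted p (0.0747, log2 fold change -0.61), and Usp18 the lowest log2 fold change (-1.22, SE 0.35).

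The ESS libraries differed among themselves. The median difference of the 42 members from the control mean was -0.15 in ESS library 1, -0.84 in library 2 and -0.56 in library 3 on the log2(FPKM + 1) scale, beside 0.05, 0.30 and -0.33 in the control libraries. ESS library 2 lay below all control libraries in 41 members, ESS library 3 in 32 and ESS library 1 in 6. Without ESS library 1, Adar fell (adjusted p = 0.0382). Without ESS libraries 1 and 2, those with salivary transcripts, Adar and Irf9 fell (adjusted p = 0.0466 for both), and the single ESS library left is then assumed to vary like the other groups. The rescaling without the most abundant genes added Ifi35 (adjusted p = 0.0442).

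Between NOD ages, 38 of 41 members had a log2 fold change above 0 at 12 against 8 weeks, while 58.1% of all genes were below 0. The median of the members relative to all genes was 0.41, and 1 member passed, where 0.0775% of all tested genes rose. That member was Ifi27, which rose from 69.3, 60.0 and 56.1 FPKM at 8 weeks to 117, 115 and 120 FPKM (log2 fold change 0.95, SE 0.13, adjusted p = 0.0135). The call ended without library 2 or 3 of either NOD age, with an adjusted p of 0.0552 to 0.0707. All 3 libraries at 12 weeks lay above all 3 at 8 weeks in 20 members, against 5.69% of all genes. Among them were Bst2 (log2 fold change 0.97, adjusted p = 0.063), Ifi27l2a (1.24, adjusted p = 0.381) and Lgals3bp (1.56, adjusted p = 0.321), which did not pass. Irf1, Isg15 and Ifit2 were the 3 members below 0, and Gbp2, whose mean FPKM was also lower at 12 weeks, had a value near 0. At an unadjusted p under 0.05 there were 14 members and 934 of all genes. As both NOD ages were compared with the same control libraries, their values against control are not independent.

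In ESS against NOD at 8 weeks 11 members were higher and 0 lower, where 11.3% of all tested genes rose, and the groups did not overlap in 16 members, against 25.2%. The largest log2 fold changes were those of Oas1a (1.87, adjusted p = 0.0007) and Trim25 (1.81, adjusted p = 1.46e-05). Oas1a stayed under 1 FPKM in every NOD library at 8 weeks, so the filter sets part of its difference. Bst2, Ifi27, Ifi35, Oas1a and Trim25 kept their calls under every alternative tried, and Gbp3, Ifi27l2a, Ifih1, Ifitm3, Lgals3bp and Trim30a lost theirs at least when ESS libraries 1 and 2 were left out together. In that fit 5 members were higher, and leaving out ESS library 1 or NOD library 2 gave 7 and leaving out ESS library 2 gave 19.

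Against NOD at 12 weeks 6 of 41 members were higher in ESS, a share no larger than the 16.2% of all tested genes that rose. In the other direction 1 member was lower, where 4.44% of all tested genes fell. The groups did not overlap in 10 of 41 members that were higher in ESS, a smaller share than the 32.1% of all genes. Oas1a (1.26, adjusted p = 0.0059) and Trim25 (1.61, adjusted p = 2.86e-05) kept their calls under every alternative tried, while Bst2, Ifi27, Irf1 and Trim30a lost theirs under at least 1. Without ESS library 1 there were 3 higher and 3 lower members, under each of the 3 scalings 4 higher and 2 lower, without ESS library 2 9 higher and 0 lower, and without NOD library 2 or 3 4 higher and 0 lower. Eif2ak2 was the member lower in ESS (log2 fold change -0.82, adjusted p = 0.0271), with 3.64, 2.25 and 2.73 FPKM against 4.77, 5.91 and 4.99 FPKM, a call lost without ESS library 2 or 3, NOD library 2 or 3, or ESS libraries 1 and 2 together. Of all genes called, 74.1% were higher in ESS than in NOD at 8 weeks and 78.5% than at 12 weeks, but 50.9% and 52.8% with centred library medians.

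Among interferon-stimulated genes outside the members, 80 were listed, 68 had values and 55 were tested. At 8 weeks 44 fell and 2 rose, where 22.1% of all 10325 tested genes fell and 547 rose. At 12 weeks 38 fell and 2 rose, where 27.8% of all tested genes fell and 570 rose. In ESS 0 of 55 were called, where 0.0969% of all tested genes fell. As for the members, the filter sets part of the difference of genes that reached 1 FPKM only in some groups, and these were not counted here. With the filter at 5 FPKM 11 fell and 2 rose at each age. The list names Oas1g and Ifit3b, near copies of the members Oas1a and Ifit3, so it is not wholly separate from the members. The 44 at 8 weeks became 29 without control library 2. The 38 at 12 weeks became 25 without control library 1 or 2, 22 without NOD library 2 or 3 and 20 to 24 under the 3 scalings. Their medians relative to all genes were -0.68, -0.47 and -0.20. The 6 with the lowest adjusted p at 12 weeks were Ly6e, Tor3a, Trim34a, Trim12a, Sp140 and Trim12c. Ly6e, a surface protein that blocks coronavirus entry, had 374, 408 and 337 FPKM in control, 428, 403 and 379 in ESS, 3.46, 1.26 and 1.22 at 8 weeks and 7.24, 2.74 and 5.23 at 12 weeks, so that its mean in control was 188 and 73.6 times those of NOD. Trim12a was listed at 0 in 5 of the 6 NOD libraries, against 1.28, 1.31 and 0.974 FPKM in control. How well reads of NOD mice match the build GRCm38 at Ly6e and Trim12a was not tested. Ifitm2, a relative of Ifitm3, had 72.5, 68.2 and 55.1 FPKM in control, 56.6, 53.2 and 39.5 at 8 weeks and 43.7, 35.8 and 39.6 at 12 weeks and fell at 12 weeks (adjusted p = 0.00447) but did not pass at 8 weeks (adjusted p = 0.0727). The 2 that rose at both ages were Isg20 and Mov10, which both act on RNA, and they are named here after their values were seen.

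**Figure D5:**
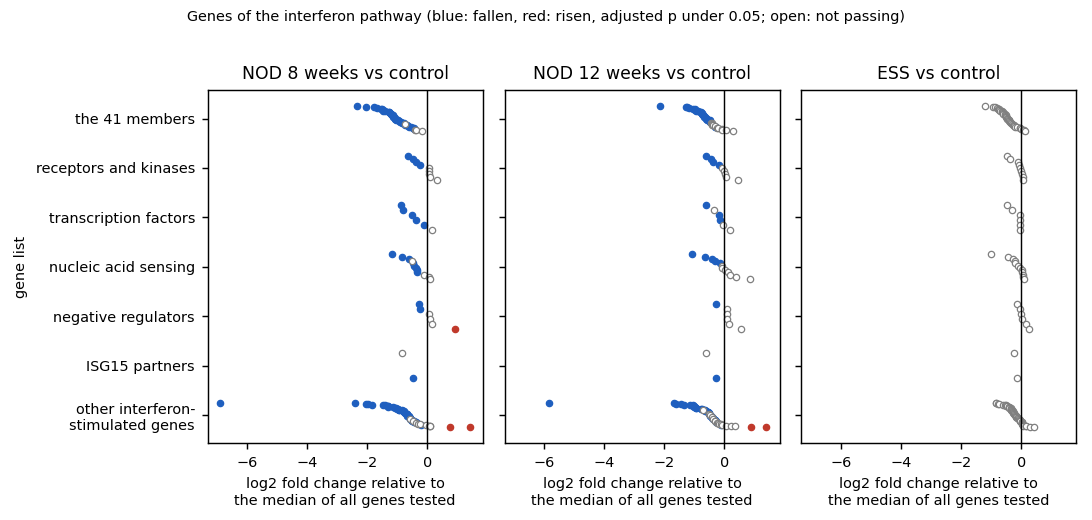
Log2 fold change relative to the median of all genes tested for the 41 members and for 6 lists of the interferon pathway, 1 point a gene, in NOD at 8 weeks, NOD at 12 weeks and ESS against control. Blue points fell and red points rose, and the point furthest left in the lowest row is Ly6e.

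Promoters with and without the ISRE letters were set side by side among the 33 matched members. At 8 weeks 15 of the 18 members with a match and 14 of the 15 without one fell, with medians of -1.08 and -0.91. At 12 weeks 14 of 18 and 10 of 15 fell, with medians of -0.71 and -0.48. Trim25 had no match in its window and Eif2ak2 had one. Among the other interferon-stimulated genes 32 of 64 promoters held a match to the ISRE letters and 7 of 64 (10.9%) to the GAS letters. Members that stand together on a chromosome include Ifit1, Ifit2 and Ifit3 on chromosome 19 and the Gbp genes on chromosome 3, and chromosome 11 holds 9 members.

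The transcript table lists 79 transcripts of the 44 symbols, among them 1 untested transcript of Herc6, and 65 were tested, and 28 were at 0 in at least 1 library. At 8 weeks 23 fell, where 6.53% of all 16400 tested transcripts fell, and at 12 weeks 11 fell, where 8.69% did. None passed in ESS against control, where limma was run over the same 16400 transcripts. The single transcript of Trim25 tested, Trim25-203, was among those fallen at both ages. The rise of Ifi27 between the NOD ages was called for Ifi27-205, with 50.3, 46.0 and 39.3 FPKM at 8 weeks and 84.7, 94.7 and 97.9 FPKM at 12 weeks (adjusted p = 0.0386). Among the 12 members with at least 2 tested transcripts, some had transcripts that swung between libraries of a group. Adar-203 had 6.04, 6.32 and 0 FPKM in the control libraries while Adar-202 had 0, 0.00403 and 6.19 FPKM, although the gene values of Adar were 4.48, 5.08 and 4.65 FPKM. Lgals3bp-201 and Lgals3bp-205 likewise changed places, with 7.89, 35.5 and 2.05 against 40.9, 4.99 and 28.6 FPKM in control. Differences in isoform use were therefore not drawn from these values.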

How the data were processed

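Lacrimal gland RNA from 4 groups of 3 libraries (control, ESS, NOD at 8 and at 12 weeks) was grouped by the sample titles. Per the labels' protocols, total RNA was extracted with Trizol, a KAPA kit that keeps strand was used, and the submitters' processing notes name the build GRCm38. The authors deposited FPKM values per gene and per transcript, per the file headers. Not given in the sources used here were aligner, annotation and any use of strand in counting. How well the reads of each group match the build GRCm38 was not tested for any gene, Trim25 and Oas1a included. Since these files hold no counts, count models were not used and depth is unknown.

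Values were analysed as log2(FPKM + 1). Genes with 1 FPKM or more in 3 or more libraries were tested in 1 linear model with 4 group means over the 12 libraries (R 4.3.3, limma 3.58.1), with a Benjamini-Hochberg adjusted p under 0.05. All adjusted p-values of genes and transcripts come from limma. The model was tested on simulated data. Tables and figures were made with Python 3.11.15, pandas 2.3.3 and matplotlib 3.10.9, and near copies were found with blastn 2.17.0. The alternatives changed the pseudocount (0.1, 5), the filter (none, 5 FPKM) and the scaling (quantile, centred medians, rescaling without the 40 genes above 2000 FPKM), used only the groups compared, a replicate block or summed transcripts, and left out libraries.

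Every member may be named; those with a mean of 5 FPKM or more in a group are given per library. Each pathway list gives at most 6 genes by adjusted p at 12 weeks and those above 50 FPKM, and each marker list at most 4. Members and lists were chosen with earlier results of these data known.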

Additional observations from a re-analysis of the deposited data

Results flagged for a closer look

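Ifi27 differed between the NOD ages. Its difference from control was smaller at 12 than at 8 weeks by a log2 fold change of 0.92 before the median of all genes was taken off (limma, adjusted p = 0.0135, higher in 3 of 3 libraries at 12 weeks than in any at 8 weeks). Age is the only difference between these groups that the labels name.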

How the results depend on the processing

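The number of members called was recomputed under 23 alternatives, and no call reversed. With the filter at 5 FPKM 15 members were tested, of which 14 fell at 8 weeks and 11 at 12 weeks against control. Among all genes that passed this filter 1342 fell and 339 rose at 8 weeks. At 12 weeks 19 fell with quantile normalization and 18 with centred medians. ESS against control gave 1 call with rescaling and 2 without ESS libraries 1 and 2. NOD at 12 against 8 weeks gave 2 calls with quantile normalization and 2 with rescaling. ESS against NOD gave 5 calls at 8 weeks and 2 at 12 weeks without ESS libraries 1 and 2. Leaving out each library in turn gave 0 to 1 calls for ESS against control, 31 to 40 for 8 weeks and 15 to 32 for 12 weeks against control, the lowest of both without control library 2. It gave 0 to 1 for 12 against 8 weeks, 7 to 19 for ESS against 8 weeks and 4 to 9 for ESS against 12 weeks. With summed transcripts 32 and 22 members fell at the NOD ages. The replicate block gave 0, 39 and 29 calls for ESS and the NOD ages against control, 2 for 12 against 8 weeks, and 12 and 7 for ESS against the NOD ages. Deviations of libraries with the same number had correlations of -0.101 to 0.196, beside -0.144 to 0.14 for libraries with different numbers. Whether the numbers pair the libraries is not given, and correlations this weak cannot decide it. Calls kept under every alternative testing the member were 28 of 37 at 8 weeks and 13 of 29 at 12 weeks against control. The filter at 5 FPKM left most members untested. The causes of these changes were not tested. Unknown depth leaves the precision of low values unknown.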
